A study of Mus musculus with 42 samples.

Results

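The genes described here are 10 markers of endothelium, the cell layer that lines blood vessels, in the mouse kidney. They are Kdr, Flt1, Tie1, Eng, Pecam1, Cdh5, Plvap, Emcn, Ehd3 and Ramp3, a list of known marker genes that was looked up by gene symbol among the 56691 genes of the deposited tables. All 10 were present and above 0 in every pool, and all 10 averaged at least 1 FPKM (fragments per kilobase of transcript, scaled to the size of the library, a level per length), the level needed to be among the 13344 genes tested. The tested mice were WT C57BL/6 males, 6 weeks old at the start, that ate a high-fat diet with 3% EpSA (taken here to be epoxystearic acid, an oxidised fatty acid) for 14 weeks, and the controls were males of the same strain, genotype and age on a chow diet for the same time. All were kept in 12 h of light and 12 h of dark, and kidneys were collected at 7 times, ZT 1, 5, 9, 13, 17, 21 and 25, where ZT (zeitgeber time) counts hours from lights on. The labels list 3 mice per diet and time, 42 libraries in all, and the deposited values are 14 means, 1 per diet and time, called pools here. The labels also name a plain high-fat diet, which was not analysed here, and the effects of fat and of EpSA therefore cannot be told apart.

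The kidney holds several vascular beds. The glomerular capillaries filter blood through fenestrated endothelium kept in place by VEGF from podocytes, the peritubular capillaries take back what the tubules reabsorb, and the vasa recta supply the medulla. Endothelial cells keep their identity through receptors for VEGF and angiopoietins, through junction proteins that hold them together, and through transcription factors of the ETS family that bind many of their promoters. In whole kidney these genes report on a minor cell type, and in such bulk samples fewer cells of a type and less RNA per cell cannot be told apart.

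The promoters of these genes are shown first, as a description. Over the 14 pools 9 of the 10 genes moved together and Ramp3 did not, while in the chow pools alone Ramp3 followed them. RefSeq's table of GRCm38.p6 held a start site for 7 of the 10 members and had no entry for Pecam1, Cdh5 and Plvap. The 250 bases before each start were searched on both strands for AGGAAG and CGGAAG, forms of the core that ETS factors bind, for the E-box CACGTG that clock factors can bind, and for TATAAA. The AGGAAG core stood in 5 of the 7 members, Emcn, Eng, Flt1, Ramp3 and Tie1, against 29.2% of the 27025 promoters in the table, and CGGAAG in 2 of the 7, Ramp3 and Tie1, against 13.8%. No member held CACGTG, against 5.93% of all promoters, and 1 of the 7, Flt1, held TATAAA, against 12.9%. A match is a description of letters and not a binding site. The 4 sequences below run 5′ to 3′ towards the start and stop before the first base of the gene in both RefSeq and the GENCODE annotation. Ramp3 is the member that differed between diets. Eng and Flt1 are members that followed the common course with AGGAAG in their promoters. Kdr followed it with neither AGGAAG nor CGGAAG, and other forms of the core were not searched. Capitals mark AGGAAG or CGGAAG on either strand. They lie at chr11:6658283-6658520 on the plus strand for Ramp3, chr2:32646345-32646594 on the plus strand for Eng, chr5:147726012-147726261 on the minus strand for Flt1 and chr5:75978459-75978705 on the minus strand for Kdr.
Ramp3: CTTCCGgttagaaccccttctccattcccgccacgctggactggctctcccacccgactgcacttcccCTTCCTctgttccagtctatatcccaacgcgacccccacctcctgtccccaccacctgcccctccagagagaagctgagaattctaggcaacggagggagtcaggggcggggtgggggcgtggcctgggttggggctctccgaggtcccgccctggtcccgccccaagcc
Eng: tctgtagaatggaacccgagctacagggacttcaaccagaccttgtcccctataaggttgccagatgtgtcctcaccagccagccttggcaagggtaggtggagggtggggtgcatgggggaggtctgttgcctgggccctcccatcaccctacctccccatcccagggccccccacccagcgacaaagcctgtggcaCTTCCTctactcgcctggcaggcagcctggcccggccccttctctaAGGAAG
Flt1: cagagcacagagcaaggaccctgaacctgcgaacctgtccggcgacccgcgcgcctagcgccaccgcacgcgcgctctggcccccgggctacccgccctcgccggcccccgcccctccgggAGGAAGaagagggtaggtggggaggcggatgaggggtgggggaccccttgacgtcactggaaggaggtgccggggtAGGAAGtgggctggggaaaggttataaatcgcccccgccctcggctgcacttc
Kdr: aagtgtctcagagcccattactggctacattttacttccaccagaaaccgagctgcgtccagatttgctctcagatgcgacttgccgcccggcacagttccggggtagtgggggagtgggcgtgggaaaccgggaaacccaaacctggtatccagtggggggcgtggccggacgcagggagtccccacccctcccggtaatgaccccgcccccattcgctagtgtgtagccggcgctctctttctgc
In Ramp3 both cores lie on the minus strand and begin at positions -182 and -250, where -1 is the base before the RefSeq start. In Eng the copies begin at -52 and -6, and in Flt1 at -129 and -53. Members that moved together were found with and without these letters, and Ramp3 carried them too. Whether the letters bear on the course of any member was not tested.

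The members were ordered by their mean level over the pools. Plvap, the protein of the diaphragms that span endothelial pores, was highest with a mean of 49.3 ± 5.59 FPKM (SD over the 14 pools), followed by Eng with 24.3 ± 4.42, Emcn with 16.6 ± 1.73 and Pecam1 with 11.0 ± 1.55. Ramp3 averaged 9.45 ± 1.22 FPKM, Kdr 8.45 ± 1.54, Cdh5 7.36 ± 1.26 and Tie1 7.15 ± 0.87, and Ehd3 and Flt1 stood last with 5.15 ± 0.96 and 4.70 ± 0.77. Neighbours in this order differed by more than the larger of their SDs from Plvap to Eng, Eng to Emcn, Emcn to Pecam1 and Tie1 to Ehd3, each in 14 of 14 pools. Within the run of 5 genes from Pecam1 to Tie1 no neighbours differed by more than the larger SD, and neither did Ehd3 and Flt1. Only neighbours were compared in this way, so the ends of the run are not said to be alike. For comparison, markers of the proximal tubule summed to between 30567 and 41640 FPKM over 6 genes in EpSA pools and between 35157 and 64278 FPKM in chow pools.

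**Figure D1:**
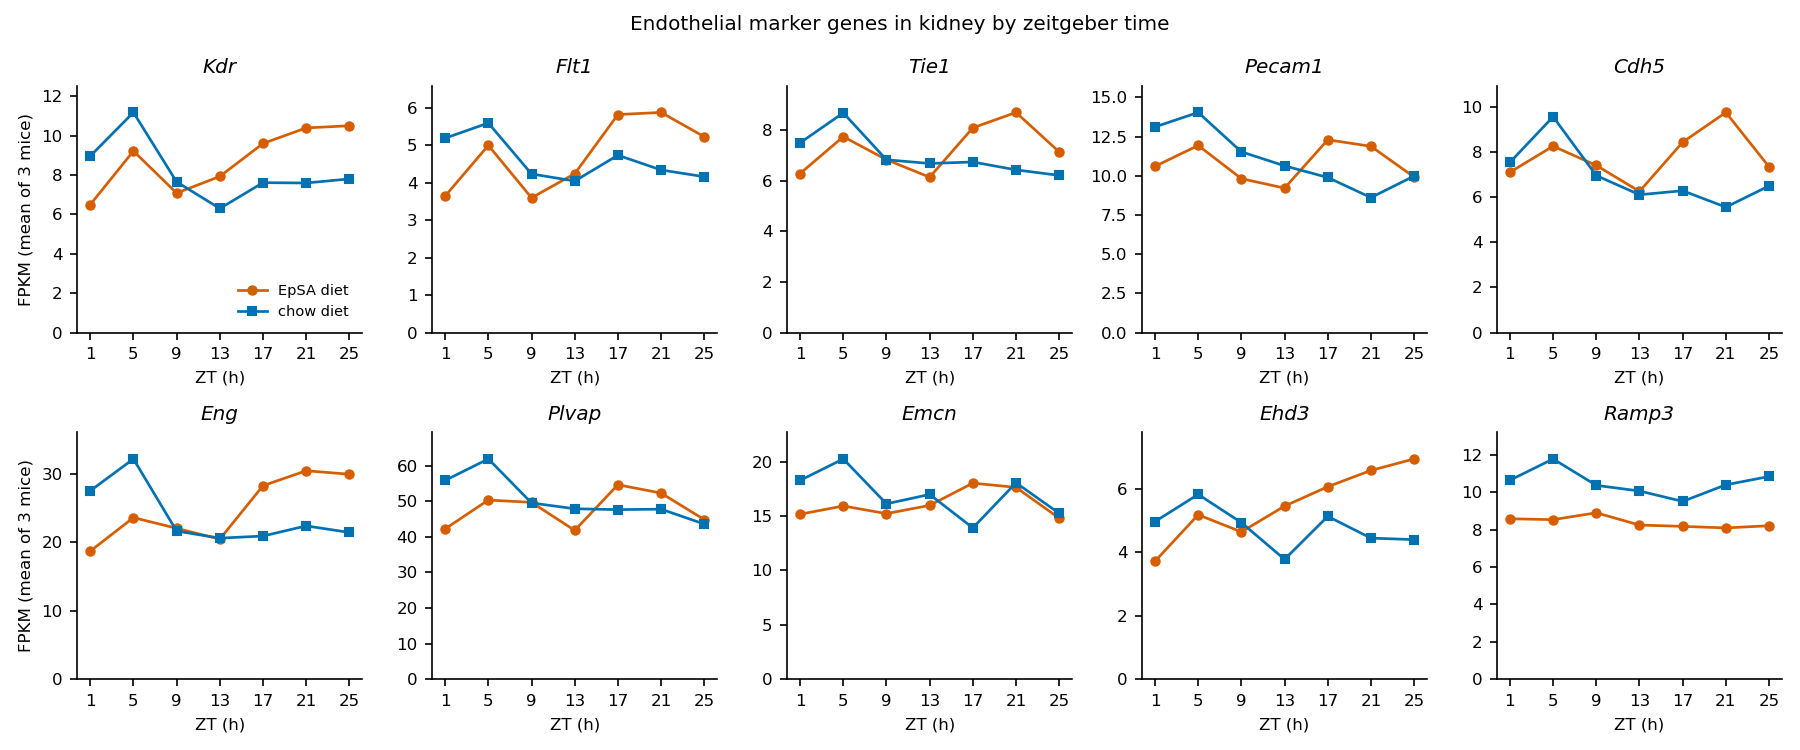
Level of each endothelial marker gene in FPKM (vertical axes, from 0) against zeitgeber time in hours, with 1 point per pool of 3 mice, EpSA pools as orange circles and chow pools as blue squares. In 9 panels the EpSA line lies below the chow line at ZT 1 and ZT 5 and most lie above it at ZT 17 and ZT 21, and in the Ramp3 panel the EpSA line lies below throughout.

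Whether the EpSA diet changed these genes over the day was asked by comparing the 7 pools of each diet with time as a factor, so that the error is the spread between times and not between mice. Ramp3 fell in EpSA kidneys, and it was the only member that passed the test. Ramp3 is a membrane protein that pairs with the calcitonin receptor-like receptor and turns it into a receptor for adrenomedullin, a peptide that relaxes vessels and tightens endothelial junctions. Its level ranged from 8.09 to 8.90 FPKM in EpSA pools, with a median of 8.24, and from 9.51 to 11.8 FPKM in chow pools, with a median of 10.4. The ranges did not overlap, as for 0.465% of all genes with every EpSA pool below every chow pool. The means were 8.39 ± 0.29 FPKM in EpSA and 10.5 ± 0.70 FPKM in chow (SD, n = 7 pools each), a difference of -0.29 ± 0.04 (SE) on the log2(FPKM + 1) scale, with an adjusted p of 0.047 in limma and a lower value in EpSA at 7 of 7 times. Among the 13344 genes tested, 0.0749% were called lower and 0.172% higher, and Ramp3 was the 8th in size of the 10 genes called lower. An exact sign-flip permutation test of its 7 time differences, two-sided and not adjusted, gave p = 0.0156, the smallest that 7 times allow. That p is fixed once all 7 differences share a sign, so it adds nothing to the count of 7 of 7 times. The other 9 members had p from 0.266 to 0.844 in the sign-flip test, and its share over all genes is not given. Ramp3 lies at chr11:6658521-6677475 on the plus strand (GENCODE, GRCm38). It shares 101 exon bases with the pseudogene Gm11978 on the other strand, which reached at most 0.083 FPKM in EpSA pools and 0.060 FPKM in chow pools. The call was near its threshold: the difference stayed between -0.32 and -0.27 under 15 other settings, but the adjusted p ran from 0.033 to 0.257 and was above 0.05 in 11 of them, including each fit that left out 1 time and the fit without limma's trend and robust options (0.0575), options set with the data in view.

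The other 9 members did not pass the test over the day, with differences from -0.07 to 0.16 and adjusted p from 0.418 to 0.892 (limma). Over all 10 the median difference was 0.04, against -0.01 for all genes tested. An unadjusted limma p under 0.05 was found for 1 of the 10, Ramp3, and for 2556 of the 13344 genes tested. Most of the other 9 members were lower in EpSA early in the series and higher late, so that the mean over times lay near 0 while single times stood apart.

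**Figure D2:**
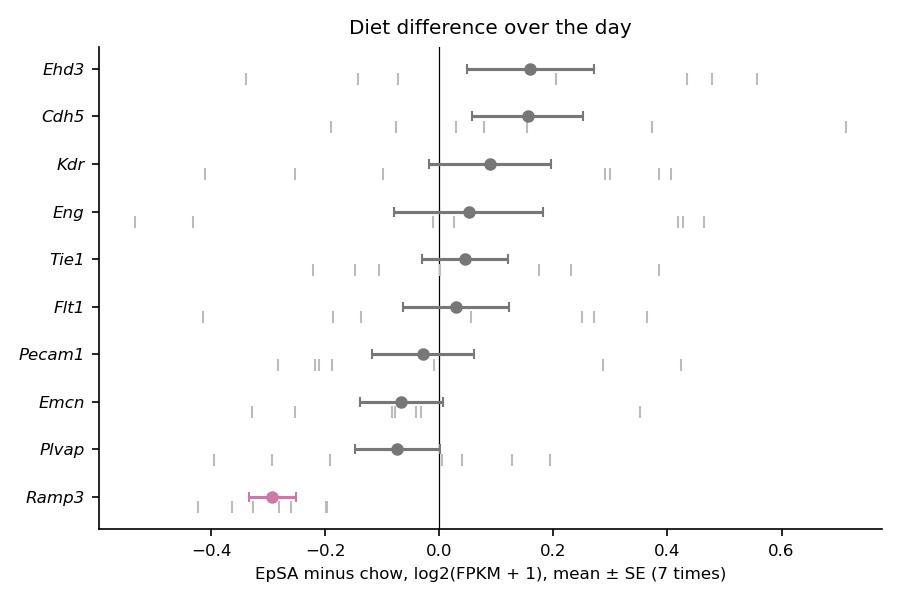
Difference between diets for each member, EpSA minus chow in log2(FPKM + 1) (horizontal axis), with circles for the mean over 7 times, bars for the SE from limma and grey ticks below each circle for the 7 times. Ramp3, in pink, has all ticks left of 0 and passed the test, and the ticks of every other member lie on both sides of 0.

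The receptors for VEGF followed that course. Kdr encodes VEGF receptor 2, the main signalling receptor for VEGF-A on endothelium. Kdr ranged from 6.50 to 10.5 FPKM in EpSA pools, with a median of 9.22, and from 6.30 to 11.2 FPKM in chow pools, with a median of 7.65. The groups overlapped fully, but their order over the day did not match: at ZT 1 Kdr had 6.50 FPKM in EpSA and 8.96 in chow, and at ZT 21 it had 10.4 FPKM in EpSA and 7.60 in chow. Flt1 encodes VEGF receptor 1, which binds VEGF tightly and holds it away from Kdr. It ranged from 3.60 to 5.88 FPKM in EpSA pools, with a median of 5.00, and from 4.05 to 5.60 FPKM in chow pools, with a median of 4.34. At ZT 1 Flt1 had 3.65 FPKM in EpSA and 5.19 in chow, and at ZT 21 it had 5.88 FPKM in EpSA and 4.34 in chow, so both receptors were lower in EpSA at the first time and higher at the sixth.

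Tie1 and Eng are co-receptors. Tie1 modulates signalling of angiopoietins through Tie2, and Tie1 ranged from 6.15 to 8.71 FPKM in EpSA pools, with a median of 7.15, and from 6.22 to 8.69 FPKM in chow pools, with a median of 6.75. Its highest pool was ZT 21 in EpSA and ZT 5 in chow. Eng encodes endoglin, which presents BMP9 and BMP10 to the receptor ALK1. Eng ranged from 18.7 to 30.5 FPKM in EpSA pools, with a median of 23.6, and from 20.6 to 32.2 FPKM in chow pools, with a median of 21.7. At ZT 1 Eng had 18.7 FPKM in EpSA and 27.6 in chow, and at ZT 25 it had 30.0 FPKM in EpSA and 21.5 in chow. Eng shares 61 exon bases with Fpgs on the other strand, which averaged 12.1 FPKM in EpSA and 12.7 FPKM in chow, and it is not known whether the counting used strand.

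The junction proteins moved likewise. Pecam1 encodes CD31, an adhesion molecule of endothelial contacts that platelets and leukocytes carry too, and it ranged from 9.22 to 12.3 FPKM in EpSA pools, with a median of 10.6, and from 8.61 to 14.0 FPKM in chow pools, with a median of 10.6. Cdh5 encodes VE-cadherin, the adherens junction protein of endothelium, and it ranged from 6.25 to 9.75 FPKM in EpSA pools, with a median of 7.40, and from 5.55 to 9.56 FPKM in chow pools, with a median of 6.49. The largest difference of any member at any time was that of Cdh5 at ZT 21, with 9.75 FPKM in EpSA and 5.55 in chow, 0.71 on the log2(FPKM + 1) scale. Pecam1 at the same time had 11.9 FPKM in EpSA and 8.61 in chow.

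Plvap, Emcn and Ehd3 mark the capillary wall. Plvap, found in peritubular more than in mature glomerular capillaries, ranged from 41.8 to 54.7 FPKM in EpSA pools, with a median of 49.7, and from 43.6 to 61.9 FPKM in chow pools, with a median of 47.9. Emcn encodes endomucin, a sialomucin of capillary and venous endothelium, and it ranged from 14.8 to 18.0 FPKM in EpSA pools, with a median of 15.9, and from 13.9 to 20.3 FPKM in chow pools, with a median of 17.0. Emcn was lower in EpSA at 6 of 7 times and higher only at ZT 17. Ehd3, an endocytic recycling protein that marks glomerular endothelium in the kidney, ranged from 3.72 to 6.95 FPKM in EpSA pools, with a median of 5.46, and from 3.78 to 5.83 FPKM in chow pools, with a median of 4.94. Its EpSA pools were lowest at ZT 1 and highest at ZT 25, and its chow pools were lowest at ZT 13 and highest at ZT 5.

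Set side by side at each time, the members gave the following counts. All 10 were lower in EpSA at ZT 1, where 56.6% of all genes tested were lower, and all 10 were lower at ZT 5, where 59.3% were. At ZT 9 and at ZT 13, 6 of the 10 were lower, against 56.3% and 62% of all genes. At ZT 17 only Ramp3 was lower, against 42.2% of all genes, at ZT 21 2 members were lower, against 40.3%, and at ZT 25 3 were, against 47.5%. In the order of the times the median difference of the 10 was -0.31, -0.24, -0.08, -0.05, 0.27, 0.40 and 0.16, and the median of all genes stayed between -0.05 and 0.07. Members share each pool, so these are not 10 independent observations, and with 1 mean per diet and time a single time has no replicate check. With the median of all genes set equal in each pool, ZT 13 had 5 lower and the counts at the other 6 times were the same.

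**Figure D3:**
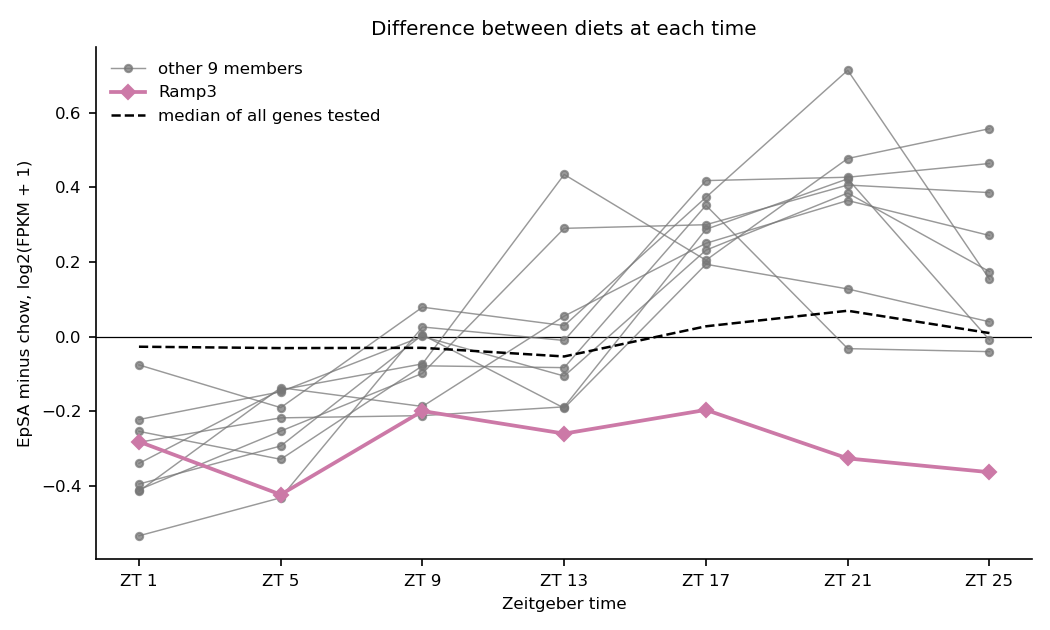
Difference between diets at each zeitgeber time, EpSA minus chow in log2(FPKM + 1) (vertical axis), with 1 line per member. The 9 grey lines lie below 0 at ZT 1 and ZT 5 and above 0 at ZT 17, the pink line of Ramp3 stays between -0.42 and -0.20, and the dashed median of all genes stays between -0.05 and 0.07.

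The hour of the highest level differed between the diets in the same way. All 10 members had their highest chow pool at ZT 5, as did 21% of all genes tested. This was not particular to endothelium. Among tested markers of other cells, 9 of 10 pericyte and smooth muscle genes and 6 of 8 podocyte genes did so. So did 4 of 5 red blood cell genes and 4 of 6 fat genes. The counts were 1 of 8 for macrophages and leukocytes, 1 of 3 for the adrenal gland and 0 of 6 for the proximal tubule. In EpSA 7 of the 10 members had their highest pool at ZT 17 or ZT 21, as did 29.3% of all genes. Kdr and Ehd3 were highest at ZT 25 and Ramp3 at ZT 9. A cosine of 24 h placed the peaks between 3.2 and 6.2 h in chow for all 10, and between 17.4 and 21.1 h in EpSA for 9, with Ramp3 at 7.2 h. The fitted amplitudes on the log2(FPKM + 1) scale ran from 0.05 to 0.22 in EpSA and from 0.09 to 0.25 in chow, and the median amplitudes of all genes tested were 0.09 in EpSA and 0.09 in chow.

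No member passed the test for a rhythm. In limma 0 of the 10 were called in EpSA, where 0.045% of all genes were, with the lowest adjusted p at 0.620, and 0 were called in chow, where 0.0974% were, with the lowest at 0.460. Without adjustment 0 members had a limma p under 0.05 in EpSA, against 8.63% of all genes. In chow 2 did, against 10.2%, and these were Cdh5 with 0.039 and Pecam1 with 0.044. The authors' deposited table gave a meta2d p under 0.05 to no member in EpSA, against 9.82% of all genes, and in chow to Ramp3 with 0.017 and Pecam1 with 0.042, against 11.8%, and its lowest q among members was 1 in EpSA and 0.667 in chow. The difference of rhythm between the diets, tested as an interaction in limma, called 0 of the 10, as it called 0% of all genes, with an adjusted p of at least 0.823, and at an unadjusted p under 0.05 it had 0 members, against 4.38% of all genes. The lowest unadjusted p of a member was 0.058, for Pecam1 in limma. The different hours of the peaks are therefore a description of these pools, and the test of the difference did not call them.

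ZT 25 is the same clock hour as ZT 1 on the next day, and the members did not return to the same level. In EpSA 7 of the 10 were higher at ZT 25 than at ZT 1, against 48.9% of all genes, and in chow 9 of the 10 were lower, against 60.6%. The widest gaps on the log2(FPKM + 1) scale were in EpSA. Ehd3 had 6.95 FPKM at ZT 25 and 3.72 FPKM at ZT 1, Eng had 30.0 and 18.7 FPKM, and Kdr had 10.5 and 6.50 FPKM. In chow Plvap had 43.6 FPKM at ZT 25 and 55.9 FPKM at ZT 1. The gap of Ehd3 within the EpSA diet, 0.75 on the log2(FPKM + 1) scale, was thus as wide as the 0.71 of Cdh5 between the diets at ZT 21.

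Over the 14 pools the members followed each other, apart from Ramp3. The correlation of each of the other 9 with the mean of the remaining members, as z-scores of log2(FPKM + 1), ran from Pearson's r of 0.60 for Ehd3 to 0.93 for Tie1, and from a Spearman's rho of 0.45 for Emcn to 0.92 for Eng. Ramp3 had an r of 0.03 and a rho of -0.17. Within a diet Ramp3 had an r of -0.64 over the 7 EpSA pools, where the other 9 ran from 0.68 for Emcn to 0.96 for Tie1. Over the 7 chow pools it had an r of 0.75, within the range of the other 9, from 0.68 for Emcn to 0.98 for Eng. By these r values Ramp3 departed from the others in EpSA and not in chow. Its EpSA pools spanned only 8.09 to 8.90 FPKM, against 9.51 to 11.8 FPKM in chow, so its r in EpSA rests on small changes. These correlations are descriptions, since all genes of a point share the same pool. Of the other 13334 genes tested, the 5 most like the mean of the members over the 14 pools were Icam2 with r = 0.93, Hip1 with 0.93, Plod1 with 0.92, Dysf with 0.92 and Ecm1 with 0.91. Icam2 averaged 3.84 FPKM in EpSA and 3.84 FPKM in chow.

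Markers of other cells moved over the same pools. The list of macrophages and leukocytes, 8 of 10 genes tested, had all 8 below 0 over the day, with none called and a median of -0.39. In the order of the times its mean difference on the log2(FPKM + 1) scale was -1.05, -0.60, -0.47, -0.59, 0.26, 0.14 and -0.14. It was thus lowest at ZT 1 and above 0 at ZT 17 and ZT 21, as was the median of the endothelial markers, which was also above 0 at ZT 25. The summed level of all 10 genes ran from 71.6 to 101 FPKM in EpSA pools and from 78.0 to 192 FPKM in chow pools, and all 10 of its genes were above 0 in every pool. Pericytes and smooth muscle had 8 of 10 genes above 0 over the day, none called, with a mean difference of -0.10 at ZT 1, -0.18 at ZT 5 and 0.29 at ZT 17, and sums of 49.4 to 69.0 FPKM in EpSA and 45.6 to 70.2 FPKM in chow. Podocytes had 7 of 8 above 0, none called, with a median of 0.17 and sums of 43.4 to 54.3 FPKM in EpSA and 35.6 to 55.3 FPKM in chow. Red blood cell genes had 5 of 5 below 0, none called, with sums of 303 to 427 FPKM in EpSA and 373 to 699 FPKM in chow, and fat markers ranged from 56.9 to 299 FPKM in EpSA and from 106 to 250 FPKM in chow. The 6 markers of the adrenal gland, which lies on the kidney, summed to 108 FPKM in the EpSA pool of ZT 9, with at most 1.66 FPKM in any other EpSA pool and 1.58 FPKM in any chow pool. No gene of these lists was at 0 in every pool. The part of these cells in the endothelial differences was not tested. Without ZT 9 the difference of Ramp3 was -0.31, with an adjusted p of 0.063 in limma.

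**Figure D4:**
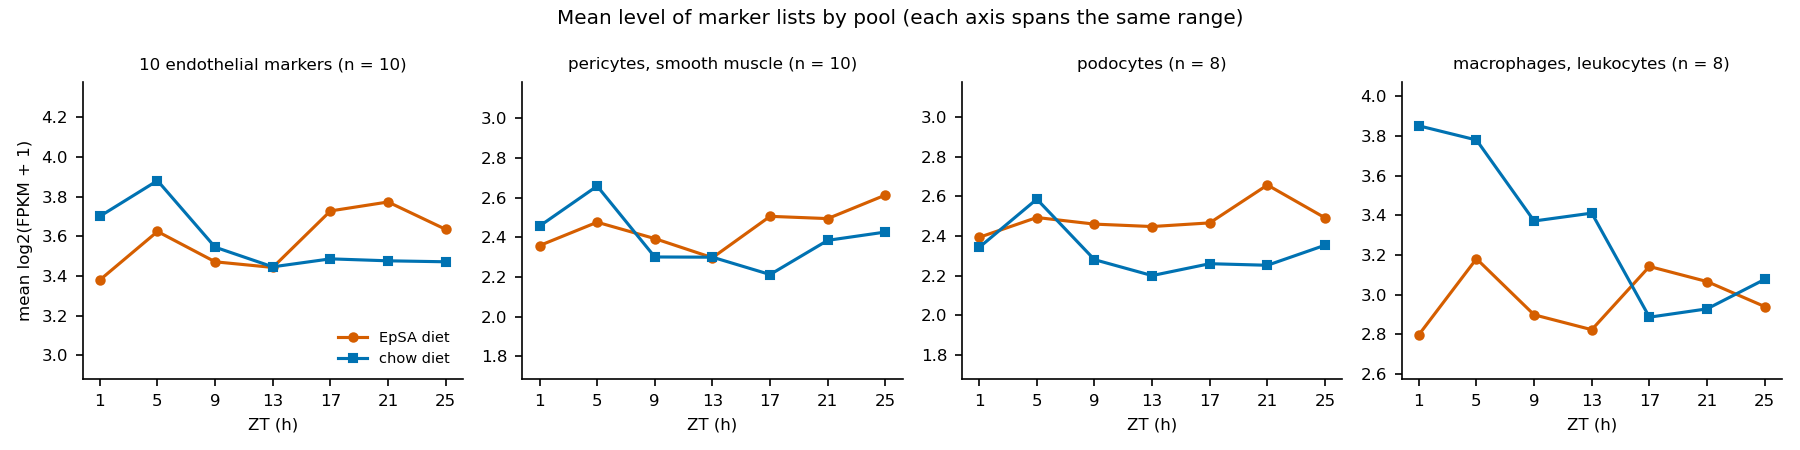
Mean log2(FPKM + 1) of the tested genes of 4 marker lists (vertical axes, each spanning the same range) against zeitgeber time in hours, with 1 point per pool, EpSA pools as orange circles and chow pools as blue squares. Chow pools of the endothelial, the mural and the podocyte lists are highest at ZT 5, and those of the macrophage and leukocyte list are highest at ZT 1.

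The partners of the members in their pathways were taken from 8 lists of endothelial signalling and function. Together they held 76 genes, of which 60 were tested, 44 of them above 0 and 16 below. Their median was 0.06 on the log2(FPKM + 1) scale, against -0.01 for all genes tested. Values above 0 were not particular to these lists, since podocytes had a median of 0.17 and pericytes and smooth muscle 0.04. Macrophages and leukocytes had a median of -0.39 and red blood cells -0.43. None of the 60 pathway genes was called in limma, and the lowest adjusted p was 0.058. That was Vegfa, the ligand of Kdr and Flt1, which podocytes and tubule cells make: it had 92.5 ± 9.18 FPKM in EpSA and 74.3 ± 6.17 FPKM in chow (SD, n = 7 pools each), was higher in EpSA at 7 of 7 times and differed by 0.31 ± 0.05. In the VEGF list 5 of 7 tested genes were above 0. Vegfc, the ligand of the lymphatic receptor, had 1.65 FPKM in EpSA and 1.44 in chow, and Vegfb had 20.1 FPKM in EpSA and 21.8 in chow.

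The adrenomedullin system around Ramp3 could be followed in 3 of 8 genes, since the other 5 lay under the level for testing. Calcrl, the receptor that Ramp3 pairs with, had 3.63 ± 0.81 FPKM in EpSA and 3.17 ± 0.51 FPKM in chow, a difference of 0.14 with an adjusted p of 0.530 in limma. It was lower in EpSA at ZT 1, 5 and 9 and higher at the later times, the largest gap being 5.03 FPKM in EpSA and 2.59 FPKM in chow at ZT 17. Ramp2, the other adrenomedullin partner of Calcrl and the form best known in endothelium, had 3.04 FPKM in EpSA and 3.01 in chow. The peptide gene Adm had 4.46 FPKM in EpSA and 4.13 in chow. All 3 lay above 0, and none was called.

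In the list of angiopoietins and Tie receptors 4 of 5 tested genes were above 0. The exception was Angpt2, the angiopoietin that opposes Tie2 signalling in many settings, with 3.25 ± 0.71 FPKM in EpSA and 4.06 ± 1.14 FPKM in chow, lower at 6 of 7 times (-0.24, adjusted p of 0.198 in limma). Ptprb, the phosphatase VE-PTP that restrains Tie2, had 5.58 FPKM in EpSA and 5.03 in chow, and Angptl4, a secreted inhibitor of lipoprotein lipase, had 13.3 FPKM in EpSA and 11.7 in chow. In the endoglin and ALK1 list 4 of 8 tested genes were above 0. Its target Id3 had 27.8 FPKM in EpSA and 25.9 in chow, and the signal transducers Smad5 and Smad1 differed by 0.05 and 0.04. In the Notch list 6 of 7 were above 0, led by the arterial ephrin Efnb2 with 3.12 FPKM in EpSA and 2.63 in chow, followed by Notch1 and Jag1 with differences of 0.08 and 0.07.

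Among junction and surface genes 8 of 12 tested genes were above 0. Podxl, a sialomucin of podocytes as well as endothelium, had 41.9 ± 5.69 FPKM in EpSA and 35.7 ± 3.56 FPKM in chow, and it is also among the podocyte markers. Mcam, the adhesion molecule CD146, had 5.24 FPKM in EpSA and 4.64 in chow, and Cldn5, the tight junction claudin of endothelium, had 5.36 FPKM in EpSA and 5.95 in chow. Endothelial transcription factors had 9 of 10 tested genes above 0, led by the flow-induced factors Klf4, with 2.99 FPKM in EpSA and 2.57 in chow, and Klf2, with 7.78 FPKM in EpSA and 6.96 in chow. Tbx3 had 1.61 FPKM in EpSA and 1.35 in chow.

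Of the vasoactive and haemostatic genes 5 of 8 tested genes were above 0. Ace, the enzyme that makes angiotensin II and that proximal tubule cells also carry, had 28.6 ± 4.94 FPKM in EpSA and 34.7 ± 2.77 FPKM in chow, lower at 7 of 7 times, but it did not pass the test (-0.28, adjusted p of 0.116 in limma). Thbd, thrombomodulin, had 7.09 FPKM in EpSA and 5.60 in chow, and Plat, the tissue plasminogen activator, had 10.2 FPKM in EpSA and 8.56 in chow. By vessel type, 3 of 4 tested arterial genes, 3 of 4 venous genes and 2 of 3 lymphatic genes were above 0, and none was called. Among arterial genes the semaphorin Sema3g had 13.4 FPKM in EpSA and 12.0 in chow, Fbln5, an elastic fibre protein, had 19.6 FPKM in EpSA and 18.1 in chow, and the chemokine Cxcl12 had 23.6 FPKM in EpSA and 24.6 in chow. Among venous genes the apelin receptor Aplnr had 1.65 FPKM in EpSA and 1.36 in chow, and Nr2f2, a transcription factor of venous identity, had 10.1 FPKM in EpSA and 9.69 in chow. Among lymphatic genes Prox1, the master regulator of lymphatic identity, had 1.28 FPKM in EpSA and 1.50 in chow, podoplanin (Pdpn), which podocytes carry too, had 3.28 FPKM in EpSA and 3.10 in chow, and the chemokine Ccl21a had 5.18 FPKM in EpSA and 5.15 in chow. The lymphatic markers Lyve1, Mmrn1 and Reln and the venous marker Ackr1 averaged at most 0.235 FPKM in either diet, too low to be tested.

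**Figure D5:**
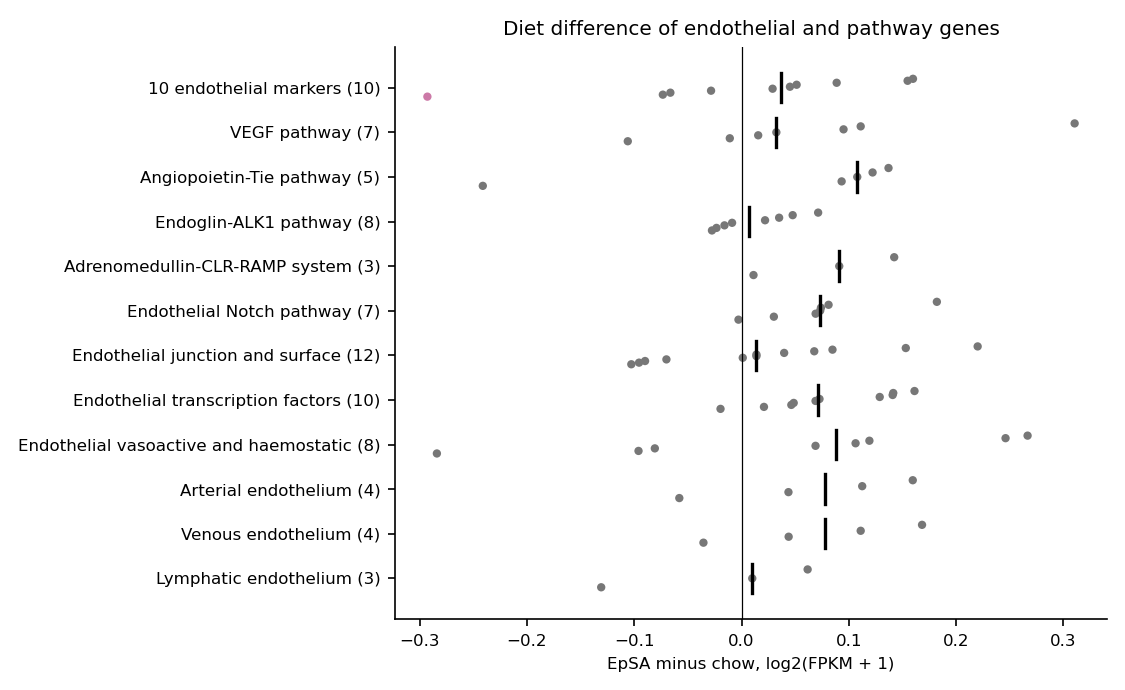
Difference between diets, EpSA minus chow in log2(FPKM + 1) (horizontal axis), with 1 point per tested gene in each list, the number tested in brackets and a black line at the median of the list. Only Ramp3, in pink among the 10 endothelial markers, passed the test, and of the 60 genes tested in the 8 pathway lists 44 lie above 0.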

How the data were processed

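Per the labels' protocols, libraries of total RNA were read from both ends, 150 bases each. No aligner, counter, build or annotation is given in the sources used here. Expression as deposited by the authors was read as FPKM, although no header gives a unit. In all 793674 values the last decimal is 0, 3 or 7, and every column was therefore read as the authors' mean of 3 mice. The mean is then the sample, the error in each test is the spread between times, and depth is unknown. Per the file headers, the authors also deposited meta2d statistics: p-values, q-values, a phase score in hours, a baseline signal on the scale of expression and a ratio of amplitude to baseline.

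The 13344 genes that averaged 1 FPKM or more entered the tests as log2(FPKM + 1), and the pseudocount of 1 understates changes of low genes. Tests used limma 3.58.1 in R 4.3.3 with a mean-variance trend and robust estimation, options chosen after the data were seen because they gave the call counts of an earlier fit of these data, and p-values were adjusted by Benjamini-Hochberg over all genes at 0.05. Residual degrees of freedom were 6 for diet with a factor for time, 4 for a 24 h cosine within a diet, and 8 for its interaction with diet. Tests planned per library were run on the means instead. The steps were tested on simulated data. The changes put in were larger than any member's difference over the day or amplitude, so that test does not give the power for the members.

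The members and lists were chosen with earlier results of these data known. Named are every member, each list gene that passed or else the 3 with the largest difference, and the 5 genes most like the members' mean. Other cell types are given by counts and sums, with genes only where their values stood apart, so most of the genes the rule selects from those lists are not named. Alternatives covered the pseudocount, filter, scaling, times and limma settings. Gene coordinates come from a GENCODE annotation and promoters from RefSeq, both on GRCm38, which may not be the authors' build. Other steps ran in Python 3.11.15 (pandas 2.3.3, numpy 2.4.6, scipy 1.17.1, matplotlib 3.10.9).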

Additional observations from a re-analysis of the deposited data

Results flagged for a closer look

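Genes named by the rule were searched for a pool far from the other 6 of its diet, by Dixon's 95% critical value for 7 values, which flagged 7 of 120 groups, where chance alone flags about 5%. Times within a diet are not replicates, so a value that stands apart can be a course over the day. No member was flagged. In chow pools at ZT 5, 3 genes stood apart: Sema3g had 16.8 FPKM, with the next highest at 11.8, Aplnr had 1.74 FPKM with the next at 1.40, and the fat marker Ucp1 had 77.5 FPKM with the next at 40.7. Klf2 had 9.14 FPKM in chow at ZT 21, with the next at 7.33. In the EpSA pool of ZT 9 the adrenal genes Hsd3b1 and Cyp21a1 had 50.4 and 27.3 FPKM, with the next highest EpSA pools at 0.163 and 0.043. Cyp21a1 in chow was highest at ZT 13 with 0.053 FPKM, a level near 0.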

How the results depend on the processing

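The count of members called for the diet difference, 1 as reported, was 0 without a filter, 0 with the median of all genes set equal, 0 without the trend and robust estimation, and 0 without ZT 1 and ZT 5, the last 2 chosen after seeing the data. With each time left out in turn it ranged from 0 to 0. For Ramp3 the adjusted p was 0.257 without a filter, 0.0521 with medians set equal, 0.0575 without trend and robust estimation, 0.126 without ZT 1 and ZT 5, and 0.0625 to 0.144 with 1 time left out (limma). The cause was not tested. Its call held with a pseudocount of 0.1, a mean of at least 5 FPKM, quantile normalization and no time factor. Differences near 0 changed sign without ZT 1 and ZT 5 for Pecam1 (0.060), Emcn (0.024) and Plvap (0.035), and under quantile normalization for Plvap (0.00065). With 1 time left out Pecam1 ranged from -0.10 to 0.014, Flt1 from -0.027 to 0.10, Tie1 from -0.011 to 0.090 and Eng from -0.017 to 0.15. The mean difference of the members stayed between -0.04 and 0.12, and every rhythm count stayed at 0. No paired analysis was possible because the columns are means over mice and carry no replicate number, so mice cannot be paired. The diets were paired by time in the diet model and in the sign-flip test.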
